A study of Mus musculus with 17 samples.

Results

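The CDK inhibitor genes of the mouse were followed across 6 populations of bone marrow stem and progenitor cells. The set holds Cdkn1a, Cdkn1b, Cdkn1c, Cdkn2a, Cdkn2b, Cdkn2c, Cdkn2d and Cdkn3, which are 8 of the 28090 gene names on the array, and it was formed by taking every non-control probe whose gene name is one of these. They had 13 of the 41174 probes: 3 each for Cdkn1b and Cdkn3, 2 for Cdkn2c and 1 for each of the others. Labelled RNA was hybridised to 17 single-colour whole mouse genome arrays, 2 for long-term haematopoietic stem cells (LT-HSC) and 3 each for short-term stem cells (ST-HSC), multipotent progenitors (MPP), common myeloid progenitors (CMP), granulocyte-monocyte progenitors (GMP) and megakaryocyte-erythroid progenitors (MEP). All cells came from female C57Bl/6 mice aged 6 to 8 weeks, for which no treatment, transgene or deletion is named, and marrow of 10 to 20 animals was pooled for each replicate sample, so the spread between arrays is a spread between pools. All were sorted as lineage-negative, c-kit+ cells. The HSC subsets were Sca-1+ and were split into LT-HSC (CD34-, FLT3-), ST-HSC (CD34+, FLT3-) and MPP (CD34+, FLT3+). The myeloid populations were Sca-1- and were split by CD34 and the Fcγ receptor into CMP (intermediate for both), GMP (positive for both) and MEP (negative for both). By its title, one LT-HSC array held pooled material of replicates 2-3; the titles of the rest carry a number or none.

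Cyclin-dependent kinases (CDKs) drive cells from one phase of the division cycle to the next, and CDK inhibitors hold them back. The Cip/Kip proteins p21 (Cdkn1a), p27 (Cdkn1b) and p57 (Cdkn1c) bind complexes of cyclins with CDKs, above all those with Cdk2. The INK4 proteins p16 (Cdkn2a), p15 (Cdkn2b), p18 (Cdkn2c) and p19 (Cdkn2d) bind Cdk4 and Cdk6 alone and keep cyclin D from them, and the Cdkn2a locus also encodes Arf, which stabilises p53 through another reading frame. Cdkn3 encodes a phosphatase that removes the activating phosphate of Cdk2. In haematopoiesis these genes are known for the quiescence of stem cells, which divide seldom, and for the exit from the cycle when blood cells mature.

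The sequences before the transcription start are shown for 5 members, 4 whose levels differed between populations and Cdkn3, because promoters are where p53 and cell cycle factors are known to act on these genes. Each run holds the 250 bases before the start on GRCm38.p6, from RefSeq, written 5′ to 3′. RefSeq windows were matched for 7 of the 8 members, with 10 start sites, and none was matched for Cdkn1c. Capitals mark matches on either strand to CATGNNNNNNCATG (the core of a p53 element), CCAAT (the CCAAT box) and TTTGAA (the cell cycle homology region, CHR); no capital run belongs to more than 1 of them.
Cdkn1a, chr17:29090729-29090978, + strand: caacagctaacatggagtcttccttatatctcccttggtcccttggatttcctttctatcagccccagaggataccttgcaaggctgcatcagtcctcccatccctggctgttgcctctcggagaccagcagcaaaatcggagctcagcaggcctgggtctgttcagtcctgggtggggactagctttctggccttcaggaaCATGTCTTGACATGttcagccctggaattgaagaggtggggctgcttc
Cdkn1b, chr6:134920151-134920400, + strand: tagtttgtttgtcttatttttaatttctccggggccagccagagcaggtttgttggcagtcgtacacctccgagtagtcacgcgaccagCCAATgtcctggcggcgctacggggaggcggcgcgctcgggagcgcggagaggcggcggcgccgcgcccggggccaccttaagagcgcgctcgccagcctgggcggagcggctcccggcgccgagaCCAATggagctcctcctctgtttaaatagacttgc
Cdkn2b, chr4:89311033-89311282, - strand: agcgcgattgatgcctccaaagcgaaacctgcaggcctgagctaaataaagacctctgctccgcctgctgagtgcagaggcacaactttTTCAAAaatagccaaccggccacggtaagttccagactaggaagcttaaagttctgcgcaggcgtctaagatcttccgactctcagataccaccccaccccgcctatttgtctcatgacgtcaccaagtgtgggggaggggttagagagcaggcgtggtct
Cdkn2d, chr9:21291210-21291459, - strand: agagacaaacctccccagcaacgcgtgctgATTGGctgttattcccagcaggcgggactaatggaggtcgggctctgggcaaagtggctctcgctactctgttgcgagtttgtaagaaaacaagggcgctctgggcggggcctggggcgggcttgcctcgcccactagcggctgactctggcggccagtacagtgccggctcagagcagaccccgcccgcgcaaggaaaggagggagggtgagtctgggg
Cdkn3, chr14:46760291-46760540, + strand: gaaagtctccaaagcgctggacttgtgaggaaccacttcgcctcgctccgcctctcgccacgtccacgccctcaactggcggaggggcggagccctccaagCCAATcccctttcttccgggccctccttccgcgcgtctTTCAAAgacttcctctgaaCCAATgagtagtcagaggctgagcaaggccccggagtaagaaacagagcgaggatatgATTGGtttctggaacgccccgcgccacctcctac
The p53 core lay 48 bases before the first start of Cdkn1a and was held by 0.490% of the 32851 windows of this length. None of the other 9 windows of the members held it, including the one before the second start of Cdkn1a. Cdkn3 held 3 CCAAT boxes, starting 149, 92 and 34 bases before its start, and 2.79% of all windows held at least 3. Cdkn1b held 2, and 10.1% of windows held at least 2. Cdkn2d held 1, and 33.8% of windows held at least 1. One TTTGAA match each stood in the Cdkn2b and Cdkn3 windows, against 16.0% of all windows. The 8-letter E2F sites TTTCCCGC, TTTCGCGC, TTTGCCGC and TTTGGCGC, searched on both strands, gave 1 match among the members, 99 bases before the first start of Cdkn2a, and 1.86% of all windows held one. These are matches of letters and no measurement of binding.

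Intensities were compared as log2 values after quantile normalization, so that a difference of 1 is a doubling of signal, and levels are compared between populations for 1 probe at a time and never between probes. Adjusted p-values are those of limma, corrected over all 41174 probes, with 0.05 as the threshold, and a gene is described by its brightest probe unless another is named. A probe is called detected on an array where the scanner software marked it as well above background. Only the summed log2 level of a gene list joins probes. It is the log2 of the summed intensities of the list's genes on an array, by the brightest probe of each, so the brightest genes weigh most. The arrays were scanned in 3 periods: CMP, GMP and MEP 1 and 2 in period 1, the unnumbered arrays other than LT-HSC in period 2, and the remaining HSC arrays in period 3. Only period 2 holds both sorts, with 1 array for each population except LT-HSC, so differences between the HSC subsets and the myeloid populations are also given with scanning period as a block and within period 2. The share of probes detected was 41.4% on the unnumbered LT-HSC array, whose 75th percentile of intensity was 53.1, against 48.2% to 70.1% and at least 243.3 on the other arrays. Of the sort markers, Kit was detected on every array, Fcgr3 was highest in GMP (mean 13.61) and Cd34 lowest in MEP (9.80), while Cd34 in the CD34- LT-HSC arrays (14.96) lay above GMP (14.29) and Ly6a, which encodes Sca-1, in the Sca-1- GMP arrays (9.71) lay above ST-HSC (8.88). Slamf1, a marker of long-term stem cells, was detected on 1 of 2 LT-HSC arrays, on all 3 of ST-HSC and of CMP, and on no other. With bulk RNA, fewer expressing cells and less RNA per cell cannot be told apart.

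**Figure D1:**
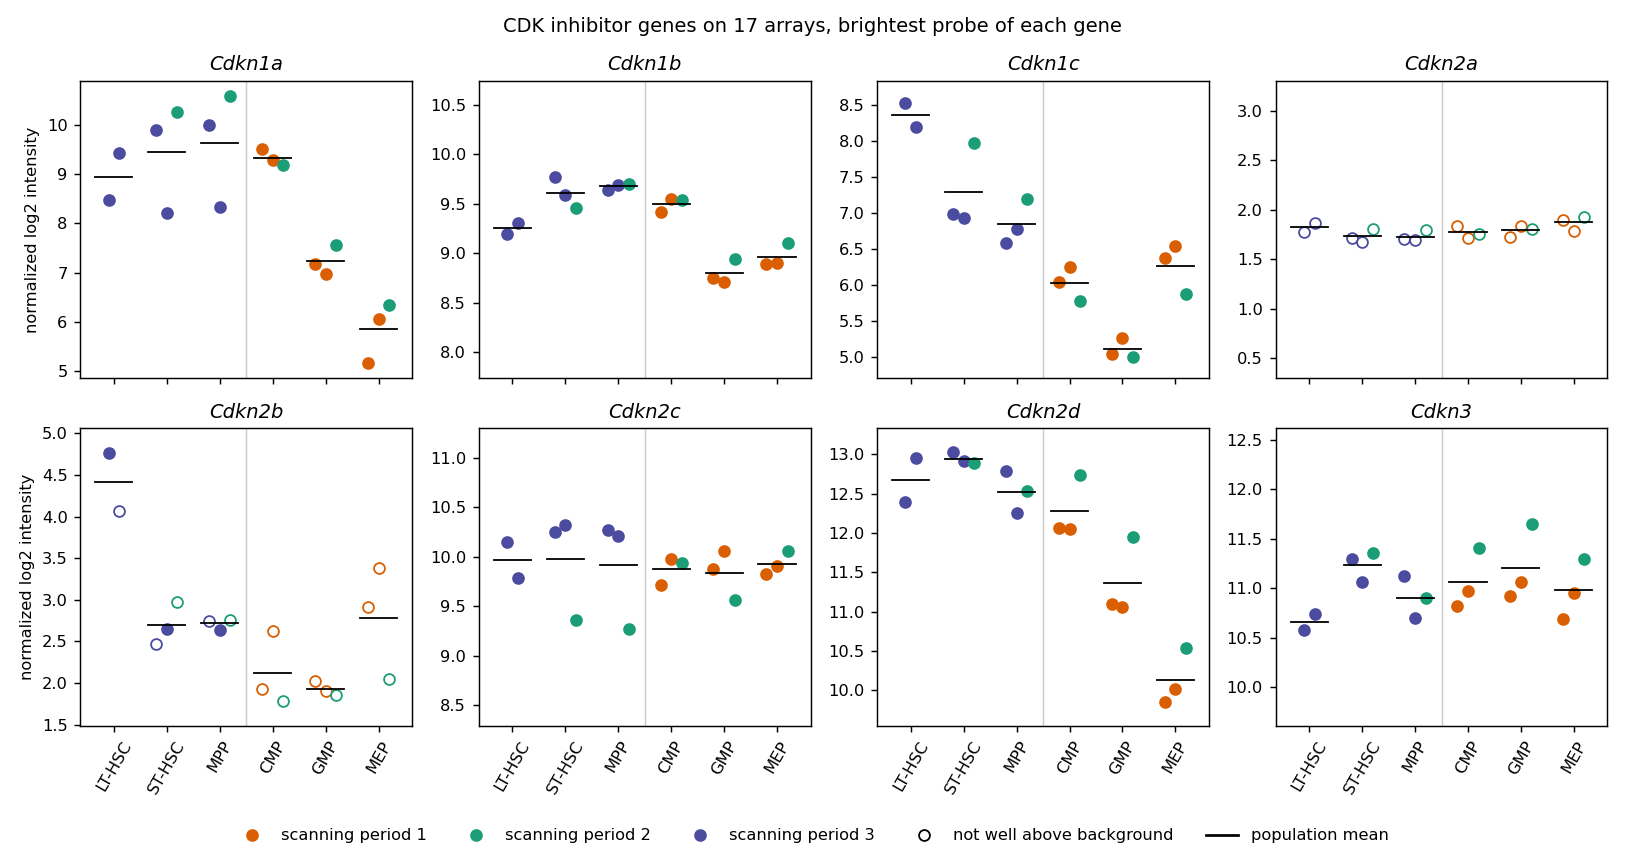
Normalized log2 intensity of the brightest probe of each CDK inhibitor gene (y axis, own scale per gene) on each of the 17 arrays, by population (x axis); points are arrays coloured by scanning period, open where the probe was not well above background, and bars are population means. The means of Cdkn1a and Cdkn2d go down from CMP through GMP to MEP, those of Cdkn1c go down from LT-HSC to MPP and are lowest in GMP, Cdkn2c and Cdkn3 are near level, and Cdkn2a is open on all 17 arrays.

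Of the 8 members, 5 varied over the 6 populations by limma's F-test: Cdkn1a, Cdkn1b, Cdkn1c, Cdkn2b and Cdkn2d. The same test called 40.1% of all genes. Cdkn2c (adjusted p = 0.997), Cdkn3 (0.392) and Cdkn2a (0.826) did not pass. In each of the 7 members detected on some array, the 6 populations were put in order of their mean level, giving 35 neighbouring pairs, and 2 of these pairs passed the adjusted threshold. One was GMP and MEP for Cdkn2d. The other was LT-HSC and MEP for Cdkn2b, a comparison that called 29.0% of all genes, but neither LT-HSC reading there was resolved above the floors of all MEP arrays, so that pair is not taken as told apart. The other neighbours missed the threshold, some with gaps of over 3 SE, so the orders given below are orders of means.

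The first question was which inhibitors separate the HSC subsets from the more differentiated myeloid populations. The same 5 members were higher in the HSC subsets and none was lower, while 21.7% of all genes were called higher and 19.0% lower. Cdkn1a stood 3.67-fold higher, Cdkn1c 3.27-fold, Cdkn2d 2.74-fold and Cdkn1b 1.34-fold; Cdkn2b was called too, from signals near the background. The median difference of the 8 members was 0.71 on the log2 scale, beside 0.04 over all genes, and it was 0.29 in the authors' values and 0.20 with normexp background correction. In each of these the median lay between the differences of Cdkn1b and Cdkn2b, so it depends on the near-background signals of Cdkn2b. Only Cdkn1c had every one of its 8 HSC arrays above all 9 myeloid arrays, a separation that 3.08% of all genes showed. With scanning period as a block, Cdkn1a, Cdkn1c, Cdkn2b and Cdkn2d stayed called as higher (8.16% of all genes were), Cdkn1b was lost, and Cdkn2c was called lower (7.26% of all genes were).

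Among the Cip/Kip genes, Cdkn1c was the one whose HSC arrays all lay above the myeloid arrays, while its mean difference was smaller than that of Cdkn1a. p57 is known for holding long-term stem cells in quiescence. Its probe (chr7:150644753-150644812 on mm9, minus strand) was detected on all 17 arrays. The levels were 8.54 and 8.20 in LT-HSC, 6.99, 6.93 and 7.98 in ST-HSC, and 6.59, 6.78 and 7.20 in MPP. They were 6.05, 6.25 and 5.78 in CMP, 5.05, 5.27 and 5.01 in GMP, and 6.38, 6.55 and 5.88 in MEP. Both LT-HSC arrays lay above all others, the GMP arrays lay below all others, and MEP overlapped CMP. HSC subsets exceeded myeloid populations by 1.71 ± 0.17 (SE; adjusted p = 5.7e-06), by 2.55 ± 0.18 with the scanning period block (adjusted p = 2.52e-05), and by 2.03 within period 2. It stayed called at a smaller size in the authors' values (1.26, adjusted p = 2.15e-06) and with normexp background correction (0.88, 1.71e-06).

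Within the HSC subsets Cdkn1c fell from LT-HSC to MPP by 1.52 ± 0.31 on the log2 scale (2.86-fold; adjusted p = 0.0123). It missed the threshold with the slide as a block (1.3, adjusted p = 0.0733) and passed with the period block (1.77, 0.000212). The comparison called 7.87% of all genes and, of the members, Cdkn1c and Cdkn2b. Some genes of the cell type marker lists were higher in LT-HSC too: 3 of 6 B cell genes (Ms4a1 by 5.66; summed log2 level 15.32 to 16.18 in LT-HSC, 15.20 to 15.35 in MPP), 3 of 5 megakaryocyte genes (13.37 to 13.67, 10.43 to 11.43), 2 of 6 mature erythroid genes (14.13 to 14.54, 12.84 to 13.96) and 1 of 6 mature neutrophil genes (18.43 to 19.10, 16.19 to 18.14). Of 5 T cell genes 2 were higher and none lower, and with the period block 2 were higher and 1 lower. The summed level of the T cell list was lower in LT-HSC (10.25 to 10.40) than in MPP (10.87 to 11.00). The lineage depletion used antibodies to B220, CD3, GR-1 and Ter119, which are carried by B cells, T cells, granulocytes and erythroid cells, and none to a megakaryocyte antigen. The part of these markers in the differences was not tested. The separate steps did not pass: LT-HSC exceeded ST-HSC by 1.07 ± 0.31 (adjusted p = 0.0819) and ST-HSC exceeded MPP by 0.44 ± 0.28 (0.84). The unnumbered ST-HSC and MPP arrays of period 2 were the highest of their groups. With the period block the step from LT-HSC to ST-HSC passed, at 1.33 ± 0.18 (adjusted p = 0.00188), and it was 1.41 within period 3. In the myeloid branch Cdkn1c was 2.23-fold lower in GMP than in MEP (log2 difference -1.16 ± 0.28, adjusted p = 0.00964), and lower in both period 1 (-1.30) and period 2 (-0.87). Over the other alternatives it stayed called, at -1.25 to -0.41, the smallest with normexp. In the same comparison all 6 mature erythroid genes were lower in GMP (summed log2 level 8.94 to 10.75, against 14.16 to 15.85 in MEP) and all 4 mast cell and basophil genes were higher (15.03 to 15.63, against 7.66 to 9.66), and their part was not tested. MPP exceeded CMP by 0.83 ± 0.28 (adjusted p = 0.0709), a step that called no member but 12.3% of all genes. With the period block it was 1.58 ± 0.21 (0.00222). There all 5 megakaryocyte genes were lower in MPP (summed log2 level 10.43 to 11.43, against 14.61 to 15.84 in CMP). Of the other marker lists, 1 of 4 mast cell and basophil genes was lower, 1 of 5 T cell genes higher, and 1 mature erythroid gene went each way. Their part was not tested.

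Cdkn1a, the p53-responsive inhibitor whose p53 core is printed above, had the widest range in the set. Its probe (chr17:29237377-29237436 on mm9) was detected on all 17 arrays. It read 8.47 and 9.42 in LT-HSC, 9.90, 8.21 and 10.26 in ST-HSC, and 10, 8.33 and 10.59 in MPP. It read 9.51, 9.28 and 9.19 in CMP, 7.17, 6.97 and 7.57 in GMP, and 5.16, 6.05 and 6.35 in MEP. CMP lay among the HSC subsets, whereas all GMP arrays lay below every CMP and HSC array and all MEP arrays below every GMP array. Arrays of ST-HSC and MPP with the same label moved together, and both arrays numbered 3 were the low ones, so the SD was 1.10 in ST-HSC and 1.17 in MPP (n = 3 each) against 0.17 in CMP.

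Cdkn1a exceeded the myeloid mean in the HSC subsets by 1.88 ± 0.36 (adjusted p = 0.000862), by 2.67 ± 0.59 with the period block (0.014) and by 2.73 within period 2. With normexp it was 1.27 (adjusted p = 0.0018). Inside the myeloid branch CMP exceeded MEP by 3.47 ± 0.59, which is 11.1-fold (adjusted p = 0.000924), with 3.79 within period 1 and 2.84 within period 2. It stayed called over the other alternatives, at 2.17 (with normexp) to 3.77. CMP exceeded GMP by 2.09 ± 0.59 (adjusted p = 0.0681) and GMP exceeded MEP by 1.38 ± 0.59 (0.151), and neither passed. With the period block the first passed (0.027) and the second did not (0.0725). Myeloid arrays with the same number were also taken as pairs, though they share a slide or a scanning period, so the number cannot be told apart from these. With the number as a block both steps passed, at adjusted p = 0.00197 and 0.0041. MPP and CMP differed by 0.32 ± 0.59 (adjusted p = 0.8), by 0.96 ± 0.69 with the period block (0.627) and by 1.41 within period 2, where ST-HSC and CMP differed by 1.08. LT-HSC and ST-HSC differed by -0.52 ± 0.66 (0.768).

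Cdkn1b encodes p27, whose protein level is set largely by its degradation. Its brightest probe (chr6:134875215-134875274 on mm9) spanned a narrow range. It read 9.20 and 9.31 in LT-HSC, 9.77, 9.59 and 9.46 in ST-HSC, 9.64, 9.69 and 9.70 in MPP, and 9.42, 9.55 and 9.54 in CMP. GMP gave 8.75, 8.71 and 8.94, and MEP 8.89, 8.90 and 9.10. All GMP and MEP arrays lay below all other arrays, and LT-HSC lay below ST-HSC and MPP without overlap. From MPP the difference of LT-HSC was -0.42 ± 0.14 (adjusted p = 0.0987), and it passed with the period block (-0.45 ± 0.12, 0.0275). HSC subsets were higher by 0.42 ± 0.08 (adjusted p = 0.000585), but by 0.25 ± 0.12 with the period block (0.197). With each array scaled to its 75th percentile instead, the difference was 0.37, equal to the median of all probes in that scaling. It stayed called as higher (adjusted p = 0.0164) but lay at -0.01 relative to that median. CMP exceeded GMP by 0.71 ± 0.13 (1.63-fold; adjusted p = 0.00517) and MEP by 0.54 ± 0.13 (1.46-fold; 0.00878). Both steps missed the threshold in that scaling (0.67 and 0.0559; 0.45 and 0.125). It was the one member called between CMP and GMP, where 5.49% of all genes were called. There 4 of 5 megakaryocyte genes were higher in CMP (summed log2 level 14.61 to 15.84, against 12.53 to 13.43 in GMP) and all 4 mast cell and basophil genes were lower (10.38 to 11.21, against 15.03 to 15.63), and their part was not tested.

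The probes of Cdkn1b disagreed on the HSC subsets. The second probe (chr6:134871103-134871161) was lower there by 0.52 on the log2 scale, with a fitted difference of -0.52 ± 0.14 (adjusted p = 0.0082), but its difference was 0.05 ± 0.14 with the period block (0.891), -0.05 in the 75th percentile scaling (0.774) and -0.35 with the slide block (0.0864). It was highest in CMP, at 6.73, 6.89 and 6.90, and from 6.08 to 6.40 in GMP and MEP. The third probe (chr6:134873606-134873665) was detected on 8 arrays and gave -0.98 ± 0.38 (adjusted p = 0.0584; -0.10 and 0.955 with the period block). Averaged over its probes, Cdkn1b differed by -0.36 (adjusted p = 0.0851), an average that takes in the third probe, which no GMP or MEP array detected. In that average the step from CMP to MEP kept its direction and its call, and the step from CMP to GMP kept its direction but missed the threshold (0.80, adjusted p = 0.117).

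**Figure D2:**
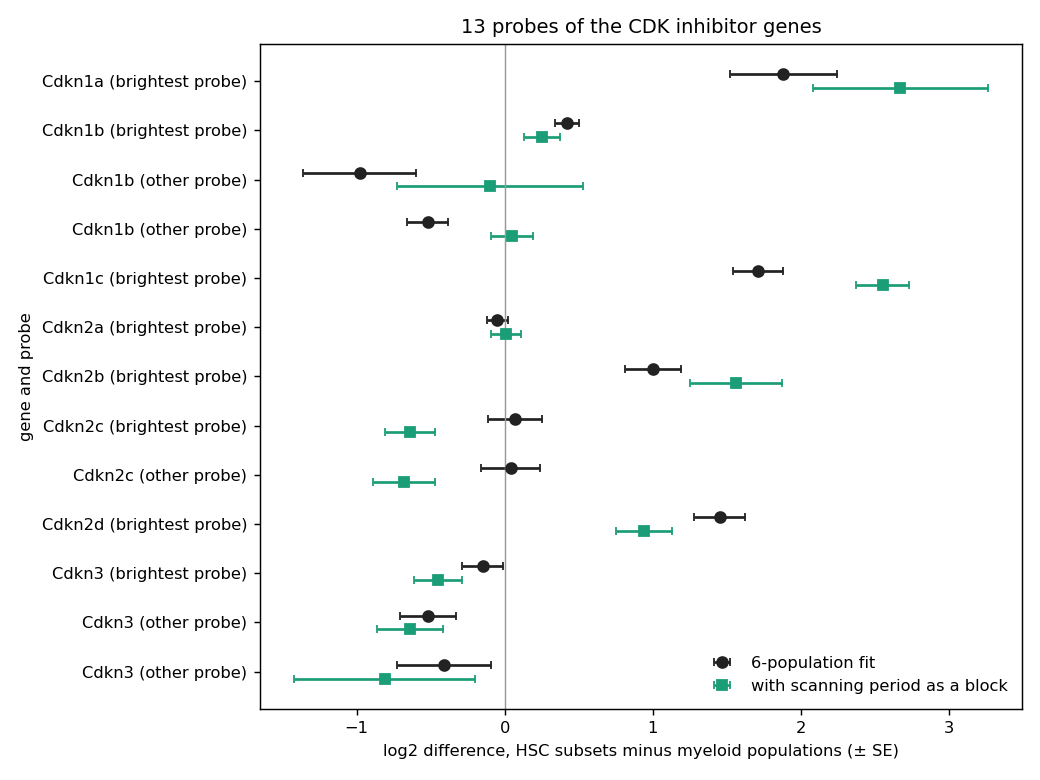
Log2 difference between HSC subsets and myeloid populations (x axis, ± SE) for each of the 13 probes (y axis), from the 6-population fit (black circles) and with scanning period as a block (green squares). Cdkn1a, Cdkn1c, Cdkn2b and Cdkn2d lie above 0 in both fits, the other Cdkn1b probes lie below 0 in the first fit, and both Cdkn2c probes lie near 0 in the first fit and near -0.64 and -0.68 in the second.

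Of the INK4 genes, Cdkn2d, which encodes p19, was lowest in MEP. Its probe (chr9:21092980-21093039 on mm9, minus strand) was detected on all arrays. The levels were 12.39 and 12.95 in LT-HSC, 13.03, 12.91 and 12.89 in ST-HSC, and 12.79, 12.26 and 12.53 in MPP. CMP read 12.06, 12.05 and 12.74, GMP 11.09, 11.06 and 11.95, and MEP 9.85, 10.01 and 10.54. GMP lay below every HSC and CMP array, and MEP lay below every GMP array; in each myeloid population the unnumbered array of period 2 was the highest.

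HSC subsets exceeded myeloid populations in Cdkn2d by 1.45 ± 0.17 (adjusted p = 2.26e-05), by 0.94 ± 0.19 with the period block (0.00957) and by 0.96 within period 2. MPP and CMP differed by 0.24 ± 0.28 (adjusted p = 0.649), with the sign turned under the period block (-0.27 ± 0.22, 0.721). CMP exceeded MEP by 2.15 ± 0.28 (4.44-fold; adjusted p = 0.000119), the same in period 1 (2.12) and period 2 (2.21) to within that error. GMP exceeded MEP by 1.23 ± 0.28 (2.35-fold; 0.00733). The step from CMP to GMP was 0.92 ± 0.28 (adjusted p = 0.104), and passed with the array number as a block (0.0449). Between CMP and MEP 17.8% of all genes were called, and Cdkn1a, Cdkn1b and Cdkn2d of the members, all higher in CMP. In the same comparison all 6 mature erythroid genes were lower in CMP (summed log2 level 10.73 to 12.18, against 14.16 to 15.85 in MEP), all 5 megakaryocyte genes (14.61 to 15.84, against 11.04 to 11.38) and 3 of 4 mast cell and basophil genes (10.38 to 11.21, against 7.66 to 9.66) were higher, and their part was not tested. Between GMP and MEP 18.5% were called, and Cdkn1c and Cdkn2d of the members, in opposite directions.

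Cdkn2b, the gene for p15, gave signals near or under background on most arrays. Its probe (chr4:88952437-88952496 on mm9, minus strand) was detected on 3 of 17 arrays: the pooled LT-HSC array, ST-HSC 3 and MPP 3. It read 4.76 and 4.07 in LT-HSC, 2.47, 2.65 and 2.98 in ST-HSC, and 2.75, 2.64 and 2.76 in MPP. None of the myeloid arrays detected it, and there the measured values ran from 1.79 to 3.38. Both LT-HSC readings were above those of the other arrays, but the floors differ. The lowest signal well above background differed between arrays, from 2.33 on ST-HSC 3 to 5.67 on the unnumbered LT-HSC array, so the second LT-HSC value lies under what that array could resolve.

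The fitted difference of LT-HSC in Cdkn2b was 1.72 ± 0.35 from ST-HSC (adjusted p = 0.0181) and 1.70 ± 0.35 from MPP (0.0121), but with the probe detected on 1 of 2 LT-HSC, 1 of 3 ST-HSC and 1 of 3 MPP arrays these are differences between signals mostly near background. It was the one member called between LT-HSC and ST-HSC, where 3.79% of all genes were called, and the call rests on the processing. In that comparison 2 of 6 B cell genes and 1 of 6 mature erythroid genes were higher in LT-HSC, and all 4 mast cell and basophil genes (summed log2 level 9.20 to 10.10, against 13.23 to 13.38 in ST-HSC) and 2 of 5 megakaryocyte genes were lower; their part was not tested. In the authors' values the differences were 0.38 (adjusted p = 0.0961) and 0.37 (0.0674), and neither passed. With normexp they were 0.27 and 0.28, and both passed. Both were lost with the slide block (1.57 and 0.118; 1.58 and 0.0679) and without the pooled LT-HSC array (1.37 and 0.0608; 1.35 and 0.0533). The difference from ST-HSC was also lost in the 75th percentile scaling (1.73, adjusted p = 0.0941), without ST-HSC 2 (1.60, 0.0604) and without ST-HSC 3 (1.69, 0.0565). Against the myeloid populations, where no array detected the probe, no fold is given, since 1 of the LT-HSC values is itself unresolved. Without the LT-HSC arrays the difference between HSC subsets and myeloid populations, called with them (adjusted p = 0.000808), was 0.43 (0.0973), and with them it ran from 0.14 (normexp) to 1.74 (75th percentile).

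No array of the 17 detected Cdkn2a. Its probe (chr4:88920545-88920604 on mm9, minus strand) read between 1.67 and 1.93 there, below the lowest signal well above background on every array, so its levels have no order. The probe does not tell p16 from Arf here, since its place in the transcripts was not analysed.

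Cdkn2c, the INK4 gene for p18, passed none of these comparisons in the 6-population fit. Its brighter probe (chr4:109333779-109333838 on mm9, minus strand) had population means between 9.83 in GMP and 9.98 in ST-HSC, and HSC subsets differed from myeloid populations by 0.07 ± 0.18 (adjusted p = 0.77). The other probe overlaps it on the genome and gave 0.04 ± 0.20 (0.881). The arrays of ST-HSC read 10.25, 10.32 and 9.36 and those of MPP 10.27, 10.21 and 9.27. In both, the array of period 2 was the low one. With the period block HSC subsets were lower by a difference of -0.64 ± 0.17 (adjusted p = 0.0335), and within period 2 the difference was -0.54.

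Cdkn3, the Cdk2 phosphatase whose transcript rises in dividing cells, was bright in all populations. Its brightest probe (chr14:47389608-47391131 on mm9, a span of 1524 bases) read from 10.58 to 11.36 in HSC subsets, median 10.98, and from 10.69 to 11.65 in myeloid populations, median 10.97. These ranges overlap from 10.69 to 11.36. HSC subsets differed by -0.15 ± 0.14 (adjusted p = 0.411), and the lowest population mean was that of LT-HSC, at 10.66 ± 0.12 (SD, n = 2). A second probe (chr14:47386895-47386954) was also detected on every array and was lower in HSC subsets, at -0.52 ± 0.19 (adjusted p = 0.0412; -0.64 ± 0.22 and 0.0767 with the period block). That call was also lost without the LT-HSC arrays (-0.37, adjusted p = 0.15) and on leaving out single arrays, among them the pooled LT-HSC array (-0.41, 0.131), MPP 3 (-0.45, 0.0828), ST-HSC 2 (-0.48, 0.0778), ST-HSC 3 (-0.51, 0.0654), MPP 2 (-0.53, 0.0609) and, of the myeloid arrays, those numbered 2 and those unnumbered (-0.54 to -0.43, 0.0517 to 0.075). The third (chr14:47387673-47387732) was detected on the unnumbered CMP array alone.

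Between ST-HSC and MPP limma called no member, none had an unadjusted p under 0.05, and each alternative fit also called none; 2.46% of all genes were called. The largest differences there were 0.44 ± 0.28 for Cdkn1c and 0.42 ± 0.28 for Cdkn2d. In Cdkn2d the ST-HSC arrays all lay above the MPP arrays.

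**Figure D3:**
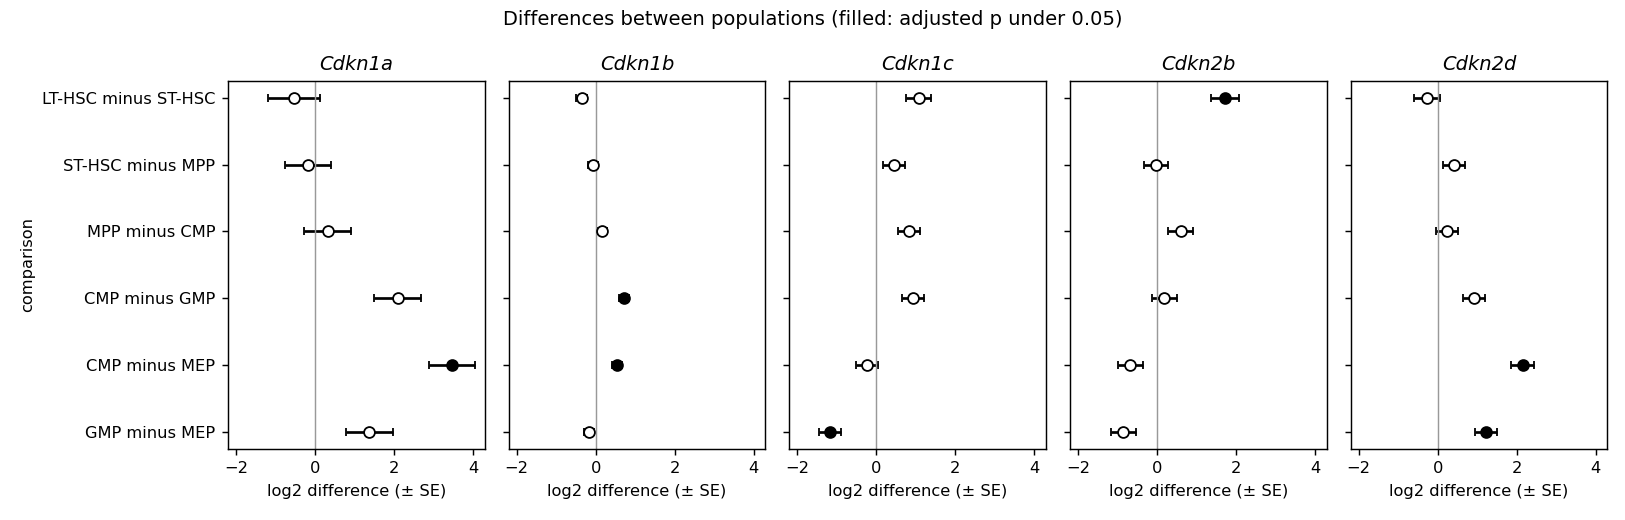
Log2 difference between populations (x axis, ± SE) for the 5 members that varied, in 6 comparisons (y axis); filled points have an adjusted p under 0.05. Cdkn1a, Cdkn1b and Cdkn2d are filled for CMP minus MEP, Cdkn1c is below 0 and Cdkn2d above 0 for GMP minus MEP, and no point is filled for ST-HSC minus MPP or MPP minus CMP.

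The kinases and regulators that these inhibitors act with were read from fixed lists, in HSC subsets against myeloid populations. Of the 8 genes of the D cyclins, Cdk4/6 and the Rb family, 3 were higher and 2 lower (median 0.24), and 2 and none with the period block (median -0.32). Ccnd1, a D cyclin, was higher by 0.92 ± 0.14 (adjusted p = 0.000144), and Cdk4, the partner that INK4 proteins bind, was lower, with a difference of -1.43 ± 0.20 (9.57e-05) that became -0.49 (0.0976) with the period block. Of the 6 genes of Cdk2, its cyclins and Cdc25a, 5 were lower and none higher, led by Ccne1 (-1.21 ± 0.13, adjusted p = 1.22e-05), the cyclin that starts replication with Cdk2. The median of that list was -0.79, beside 0.04 over all genes. With the period block 2 were lower (median -0.66), and in the 75th percentile scaling 3 were lower and 1 higher. The populations within each side differed: Ccne1 was lower in CMP than in MEP (-2.70 ± 0.22, adjusted p = 2.04e-06) and higher in LT-HSC than in MPP (1.98 ± 0.25, 0.000372). The summed log2 level of the list was 14.80 to 14.96 in MEP, 13.11 to 13.45 in LT-HSC, 12.94 to 13.19 in CMP and GMP, and 12.28 to 12.63 in ST-HSC and MPP. By this sum, in which the brightest genes weigh most, LT-HSC did not lie below CMP and GMP. Of the 5 genes of the ubiquitin ligase for p27, 2 were lower, led by Cul1 (-1.04 ± 0.23, 0.0023; -0.53 and 0.128 with the period block).

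The upstream regulators were called in both directions. Of 12 genes, p53 and its targets other than Cdkn1a, 7 were higher and 1 lower, with a median of 0.77. Bbc3, which encodes the apoptosis factor Puma, was higher by 1.81 ± 0.24 (adjusted p = 5.18e-05) and Bax was lower, at -0.78 ± 0.19 (0.00493). With the period block 6 genes of this list were higher and 1 lower (median 0.85). In CMP against MEP, where Cdkn1a was called, 2 genes of this list were higher in CMP and 3 were lower. In CMP against GMP 4 were higher in CMP and none lower, and in GMP against MEP 2 were higher in GMP and 5 lower. Cdkn1a missed the threshold in both of these steps. Of the 3 FoxO factors, 2 were called higher and Foxo3 was detected on no array. Foxo1 was higher by 1.04 ± 0.17 (adjusted p = 0.000349; 1.58 and 0.00153 with the period block). Foxo4, detected on 6 of 8 HSC and 2 of 9 myeloid arrays, gave a fitted difference of 1.63 ± 0.39 (adjusted p = 0.00458), which was 1.03 with the slide block (0.108) and -0.44 with the period block (0.542). Of the 7 polycomb genes known to hold Cdkn2a down, 4 were higher, led by Cbx7 (1.25 ± 0.21, 0.000307), and 2 lower, led by Ring1 (-0.64 ± 0.11, 0.000306; -0.41 and 0.103 with the period block). With the period block 1 of them was higher and 1 lower, and the median turned from 0.49 to -0.15.

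Genes of division itself were lower or not called in the HSC subsets. Of 10 DNA replication genes, 6 were lower, led by the licensing factor Cdc6 (-1.22 ± 0.10, adjusted p = 1.03e-06), and 4 with the period block. Of 14 mitosis genes, 8 were lower, led by the topoisomerase Top2a (-1.44 ± 0.24, 0.000319; -0.76 with the period block, still called), and 13 were lower with the period block; none of either list was higher. The summed log2 level of the replication list was 17.93 to 18.05 in MEP and 17.45 to 17.55 in LT-HSC, while GMP (17.66 to 17.71) overlapped ST-HSC (17.68 to 17.77) and MPP (17.56 to 17.82). That of the mitosis list was 16.78 to 17.28 in MEP, and CMP (16.31 to 16.78) overlapped ST-HSC (16.38 to 16.50). In the 75th percentile scaling, which moved the median of all probes from 0.04 to 0.37, the list medians were -0.56 for the Cdk2 list, -0.43 for replication, -0.51 for mitosis and 0.76 for p53, while those of the D cyclin (0.13) and polycomb (0.41) lists came below or near that median. Markers of other cells differed too: 4 of 6 mature neutrophil genes (summed log2 level 16.19 to 19.11 over the HSC arrays, 15.22 to 17.80 over the myeloid arrays), 4 of 6 B cell genes and 5 of 5 T cell genes were higher in the HSC subsets. With the period block 5, 3 and 2 of them were higher. Of the T cell genes, 2 were detected on no CMP array and 3 on no GMP array. Of 6 mature erythroid genes 2 were higher and 1 lower, and none was called with the period block. The part of these markers in the results for the inhibitors was not tested.

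**Figure D4:**
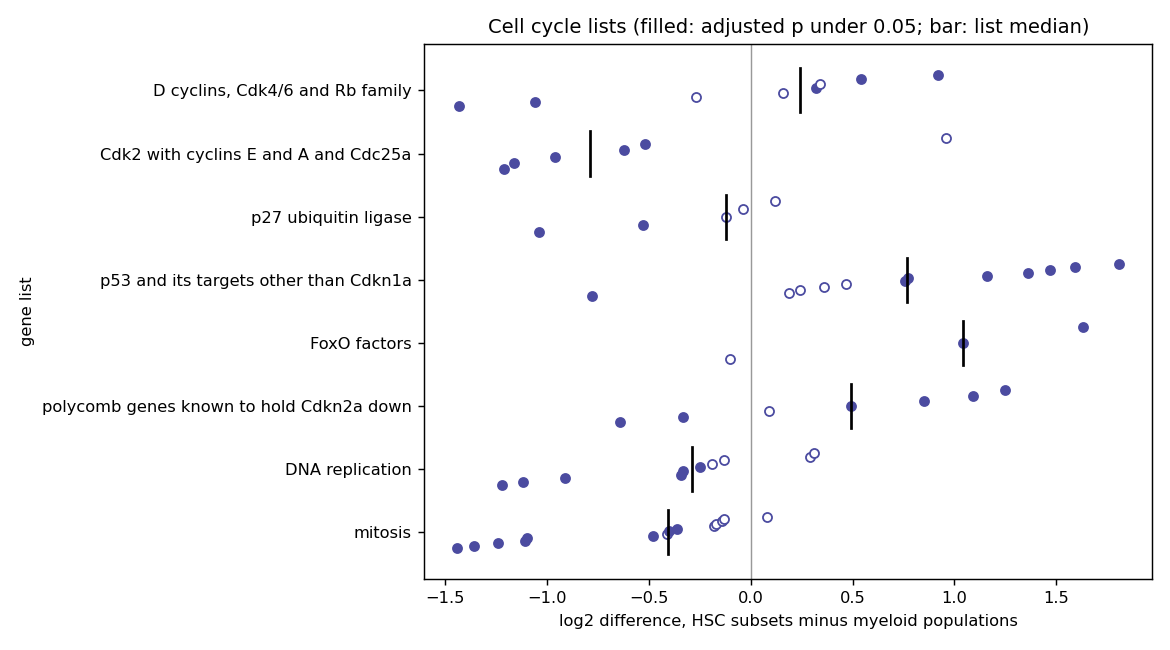
Log2 difference between HSC subsets and myeloid populations (x axis) of each gene in 8 fixed cell cycle lists (y axis); filled points have an adjusted p under 0.05 and bars are list medians. Most genes of the Cdk2 list lie below 0 (median -0.79), most of the p53 list above 0 (median 0.77), and filled points of the replication and mitosis lists lie below 0 only.

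The genes most like each member over the 17 arrays were taken from the 15381 genes detected on at least 9 arrays, which leaves out Cdkn2a and Cdkn2b. The arrays share population, sort and scanning period, so these correlations describe the arrays. Cdkn1a was closest to 2010002N04Rik (Pearson r = 0.98, Spearman rho = 0.99), Cxxc5 (0.95, 0.93) and Ier5l (0.95, 0.91). Cdkn1b was closest to Ddah2 (0.96, 0.94), Mex3b (0.94, 0.92) and C030044C12Rik (0.93, 0.81). Cdkn1c was closest to Igkv14-111 (0.94, 0.96), 2010309G21Rik (0.93, 0.92) and Gpr162 (0.93, 0.92). No gene was named for more than 1 of the members. Cdkn2d was closest to AK076954 (0.98, 0.91), TC1709674 (0.96, 0.92) and Zfp521 (0.96, 0.86), the last a zinc finger gene of immature blood cells. Cdkn2c was closest to Atad2b (0.88, 0.87), Map2k1ip1 (0.85, 0.78) and AK079154 (0.85, 0.88), and Cdkn3 to Eif3eip (0.88, 0.81), Ptpmt1 (0.86, 0.88) and Ndufa2 (0.86, 0.88). Among the members, Cdkn1a and Cdkn2d were most alike (r = 0.90, rho = 0.78), and Cdkn1a and Cdkn1b followed (0.80, 0.75). The lowest value was that of Cdkn1c and Cdkn3 (-0.42, -0.41), of which Cdkn3 did not pass the F-test over the populations.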

How the data were processed

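Total RNA of sorted cells was labelled with Cy3 and hybridised to Agilent whole mouse genome arrays; the authors state quantile normalization and linear models in limma for their own analysis. The deposited scanner files hold processed spot intensities, made by Agilent Feature Extraction before deposit, and the authors' series table holds log2 values of the same spots, of which the scale and normalization were checked against the spot signals and which served as an alternative. All 17 columns of that table were matched to samples. The software differed between period 1 and the later periods.

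Here the log2 intensities of 45018 spots were quantile-normalized, 1639 control spots and outlier spots were left out, spots were averaged per probe, and 41174 probes were fitted in 1 model with lmFit and eBayes (limma 3.58.1, R 4.3.3) over the 6 populations, with Benjamini-Hochberg adjustment. Percentages of genes called are over the brightest probe of 28090 gene names. Arrays give no read depth; their number limits the precision, and 161 probe values were missing. In data simulated for HSC subsets against myeloid populations, with 200 changed genes, 57% of those changed by 1 on the log2 scale and 85% of those changed by 2 were called.

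The members and lists were chosen with earlier results of these data known. The text names every member, the called gene with the largest rise and fall of each list in HSC subsets against myeloid populations, the sort markers, and the 3 genes most like each member detected on at least 9 arrays. Foxo1, Foxo3 and Ms4a1 are named outside this rule. Samples were grouped by their labels. Same-numbered arrays deviated together within the myeloid sort (correlations of 0.13 to 0.512, unnumbered arrays included) and between ST-HSC and MPP (0.286 to 0.668), but not across sorts, nor for the unnumbered LT-HSC array with ST-HSC (-0.06; 0.111 with MPP), so the numbers, from the sample titles, were taken to pair the myeloid populations, and ST-HSC with MPP, but not LT-HSC. Only arrays with the same label were compared in this way. Arrays paired so also shared a scanning period, and the myeloid arrays numbered 1 and those numbered 2 shared a slide each. Pairing by number therefore cannot be told apart from slide or period. The block has 1 term per label over both sorts. Its values stand beside steps within the myeloid sort that they change, and otherwise in the closing section. Alternatives were scaling to the 75th percentile, normexp (offset 50), starting from the authors' values, leaving out dim probes, blocks for scanning period, slide and number, the mean of a gene's probes, and leaving out the LT-HSC arrays or each array. No annotation on mm9 was used, so exons and UTRs are not given.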

Additional observations from a re-analysis of the deposited data

Results flagged for a closer look

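Over 26 groups of arrays (the 13 probes of the CDK inhibitor genes, each in the 8 HSC and in the 9 myeloid arrays), 1 held an array far from the others, and chance flags about 1 group in 20. It was a dim probe of Cdkn3, which read 4.16 on the unnumbered CMP array, the array where it was well above background; the gap to the next myeloid array was 0.51 of the range of the 9 myeloid arrays. The brightest probe of Cdkn3 on that array was 11.41.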

How the results depend on the processing

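The count of members varying over the 6 populations ran from 4 to 6 over all alternatives, that of members called in HSC subsets against myeloid populations from 4 to 5, in GMP against MEP from 2 to 3 and in CMP against MEP from 2 to 4, and that of list genes called from 32 to 44 around 42. Members called in ST-HSC against MPP stayed at 0 throughout, while the other counts moved. Members called in LT-HSC against ST-HSC, 1 in the 6-population fit, came to 0 with the 75th percentile, the slide block, the replicate block and the dim-probe filter, and to 2 with normexp and the scanning period block. In LT-HSC against MPP the 2 members came to 3 with the 75th percentile and the period block, to 1 with the authors' table and the dim-probe filter and to 0 with the slide and replicate blocks. In MPP against CMP the count was 1 with the period block, the slide block and the dim-probe filter, in place of 0. In CMP against GMP, 1 in the main processing, it was 4 with the period and slide blocks, 3 with the replicate block, 2 with the authors' table and the dim-probe filter, and 0 where a gene's probes were averaged. The 2 neighbouring pairs past the threshold became 6 with the 75th percentile, 4 with the authors' table, 9 with the period block and 5 with the slide and replicate blocks. With each array left out in turn these counts ran from 0 to 2 (LT-HSC against ST-HSC), 1 to 2 (LT-HSC against MPP), 0 to 1 (MPP against CMP), 1 to 2 (CMP against GMP) and 2 to 4 (neighbouring pairs). Of the differences called for a named gene or probe, those whose sign turned were Cdkn1b with the mean of all probes (-0.36), its second probe with the period block (0.05) and Foxo4 with the period block (-0.44); uncalled differences and list medians that turned stand in the text. The labels do not pair LT-HSC with the other populations or samples across sorts, and the pooled LT-HSC array has a label of its own, so in the replicate block LT-HSC values come from its unnumbered array: there Cdkn1c gave 1.22 (adjusted p = 0.097) against MPP and Cdkn2b 1.51 (0.0592) against ST-HSC and 1.49 (0.0532) against MPP. Between HSC subsets and myeloid populations that block gave -1.36 (0.0231) for the third Cdkn1b probe and 1.38 (0.0923) for Foxo4. Steps within the myeloid sort that it changed stand in the text. The 75th percentile turned the share of called probes that were higher in HSC subsets from 44% to 64.1%. Where no cause is given, it was not tested.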
